A study of Saccharomyces cerevisiae with 8 samples.

Results

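IMD1, IMD2, IMD3 and IMD4, the IMP dehydrogenase genes of Saccharomyces cerevisiae, and GUA1, the GMP synthase gene, are the 5 genes described here, of 6600 protein-coding genes in the count tables. They were taken by name, and the family was selected on the RPF levels of IMD2, which differ widely between the strains in these same libraries, so the levels of IMD2, and of IMD1, which shares reads with it, are given as a description with no test. All 5 passed the filter on low counts, and tests are given only for IMD3, IMD4 and GUA1. IMD3 also shares some reads with IMD2, so its tests are not wholly free of the values used for the choice.

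Ribosome-protected fragments (RPFs), the short pieces of mRNA that translating ribosomes shield from nuclease, were measured in 4 evolved strains with 2 libraries each. Each strain is a clonal isolate of the FY4/S288C background that carries a GAP1 copy number reporter and an amplification of GAP1 on chromosome XI, selected under glutamine limitation: Trans (DGY1726) by a transposon-mediated tandem duplication nested within a translocation, with a further copy number variant on chromosome V, ODIRA_A (DGY1735) and ODIRA_B (DGY1743) by inverted repeats at replication origins, and ComQuad (DGY1741) by a complex quadruplication. All 4 were grown in glutamine-limited chemostats and treated with cycloheximide at harvest, and Trans and ODIRA_A were isolated from earlier population samples than ComQuad and ODIRA_B. The unevolved ancestor was not analysed here, so every difference is between evolved strains, and an RPF level joins the amount of an mRNA and the ribosomes on it. A single clone stands for each amplification. Growth in chemostats and harvest were done in duplicate for each strain, so the spread between its libraries is that of biological replicates of 1 clone. The libraries held 3723082 to 11459498 RPFs on coding sequence (CDS), with the fewest in both ODIRA_B libraries.

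IMP dehydrogenase converts IMP to XMP, the first step that commits purines to the guanine branch, and GMP synthase then turns XMP into GMP. IMD2 is known for its response to guanine nucleotides: when GTP is plentiful, transcription starts upstream and ends early through the Nrd1-Nab3-Sen1 pathway, and when GTP is scarce it starts downstream and gives full mRNA. IMD3 and IMD4 are transcribed without that switch, and IMD1 is a subtelomeric copy of IMD2 whose reading frame is broken in the S288C reference.

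The coding sequences lie on 4 chromosomes of the R64 build. IMD1 (YAR073W) is on the plus strand of chromosome I, from 227742 to 228953, and the open reading frame YAR075W (228844 to 229317) follows it on the same strand. IMD2 (YHR216W) is on the plus strand of chromosome VIII, from 554396 to 555967, and IMD3 (YLR432W) is on the plus strand of chromosome XII, from 1002557 to 1004128. IMD4 (YML056C) is on the minus strand of chromosome XIII, from 162194 to 164176, with 2 coding exons. GUA1 (YMR217W) is on the plus strand of the same chromosome, from 701790 to 703367, with 1 coding exon, as in the other 3 IMD genes.

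Since a fragment is too short to name its paralog everywhere, 3 sets of sequence from the RefSeq R64 genome are shown. The first set is a stretch of 30 bases that is the same in 3 of the paralogs, starting 310 bases into each CDS (position 1 being the A of the start codon), so that a fragment from it could be placed on any of them.
IMD1, chrI:228051-228080, plus strand: ccagaggaccaagctgacatggtcagaaga
IMD2, chrVIII:554705-554734, plus strand: ccagaggaccaagctgacatggtcagaaga
IMD3, chrXII:1002866-1002895, plus strand: ccagaggaccaagctgacatggtcagaaga

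The second set shows where the paralogs can be told apart, with bases that differ from IMD2 in capitals. From CDS position 127, IMD3 differed from IMD2 at 10 of 30 bases and IMD4 (from its position 130) at 8, whereas IMD1 was identical to IMD2.
IMD2, chrVIII:554522-554551, plus strand: ttaatcttaccaggtttagtcgattttgcg
IMD1, chrI:227868-227897, plus strand: ttaatcttaccaggtttagtcgattttgcg
IMD3, chrXII:1002683-1002712, plus strand: ttGGtTttGccaggtCtGgtTgatttCCcA
IMD4, chrXIII:164018-164047, minus strand: ttGGtcttaccaggCttGgtcAatttCCcA
From CDS position 871, IMD1 differed from IMD2 at 7 of 30 bases, and there its sequence was that of IMD3.
IMD2, chrVIII:555266-555295, plus strand: ctcaagtgggtcaaagagagtttcccaggt
IMD1, chrI:228612-228641, plus strand: AtcaaAtggAtTaaagaAaCtttcccagAt
IMD3, chrXII:1003427-1003456, plus strand: AtcaaAtggAtTaaagaAaCtttcccagAt

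The third set is the start of YAR075W within IMD1, from IMD1 position 1103. An alignment placed 4 extra bases of the IMD1 locus here, in capitals (which A of the run is the extra one is arbitrary), and the frame of IMD1 ended at base 1212, against 1572 bases in IMD2.
IMD1, chrI:228844-228873, plus strand: atggtggtgttcAaaaacattggtcaTATt
IMD2, chrVIII:555498-555523, plus strand: atggtggtgttcaaaacattggtcat

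Over the whole reading frame, the IMD1 locus (IMD1 start to YAR075W end) was 96.6% identical to IMD2 in aligned bases, IMD2 was 88.9% identical to IMD3 and 78.9% to IMD4, and IMD3 was 82.1% identical to IMD4. Windows of 28 bases, about the length of an RPF, give the sharing that matters for counting. Of the 1545 windows of IMD2, 591 (38.3%) also occurred in IMD1, 207 in YAR075W, 208 (13.5%) in IMD3 and 8 in IMD4, and 720 (46.6%) occurred at a single place in the genome. In IMD1, 42.4% of windows occurred at a single place, in IMD3 71.0% and in IMD4 86.4%, whereas all 1551 windows of GUA1 did. Counts of GUA1 are therefore free of this sharing, and those of IMD1 and IMD2 are the most exposed to it.

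**Figure D1:**
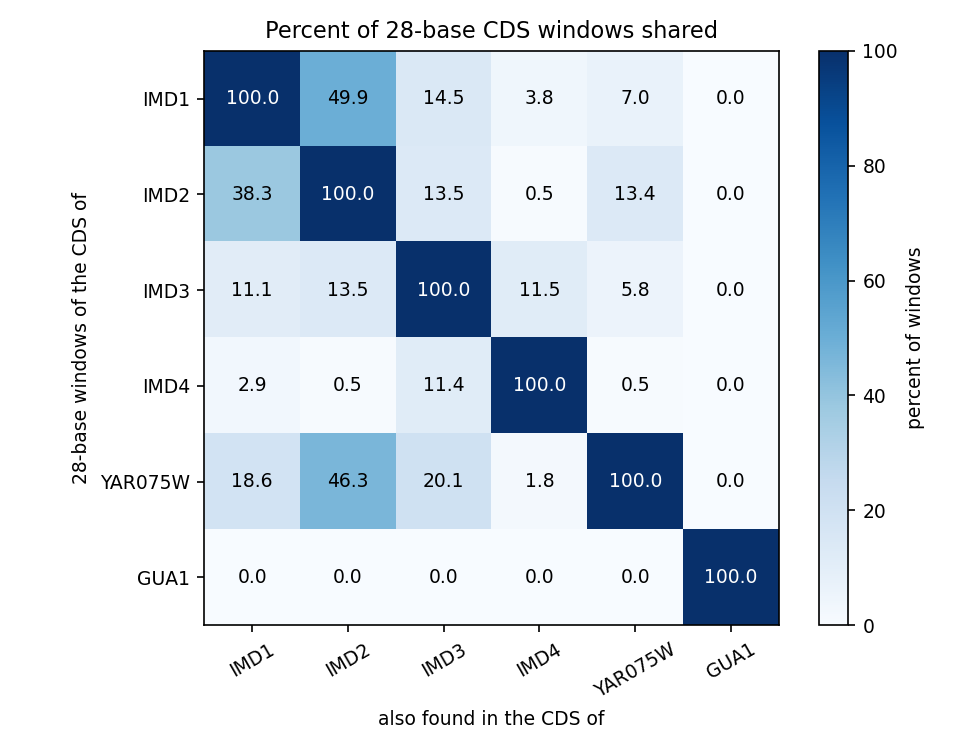
Percent of the 28-base windows of each coding sequence (rows) that also occur in another coding sequence (columns), in the R64 reference. IMD1 and IMD2 share the most (49.9% of IMD1 windows, 38.3% of IMD2 windows), IMD3 shares 11.1% to 13.5% with each other IMD gene, and GUA1 shares none.

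The tables themselves show that shared reads were counted at more than 1 place. Among 24 pairs of genes with identical coding sequence and at least 10 RPFs, the counts of both copies were equal in 165 of 192 library comparisons, and 18 pairs were equal in all 8 libraries. A fragment from a shared window of IMD3 could thus be counted on IMD2, IMD1 or IMD4 as well. The tables hold 1 count per coding exon, so reads from shared and from single-place windows cannot be told apart.

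IMD2 was lowest in Trans, intermediate in ODIRA_A and highest in ComQuad and ODIRA_B. Its raw counts were 285 and 257 RPFs in Trans, 865 and 893 in ODIRA_A, 2574 and 2065 in ComQuad, and 900 and 837 in the shallower ODIRA_B libraries. As CPM, counts scaled to a common library size by edgeR's TMM factors, IMD2 was at 35.6 and 34.2 in Trans, 110.3 and 94.7 in ODIRA_A, 214 and 257 in ComQuad, and 249.8 and 234 in ODIRA_B. The libraries of Trans lay below all others, those of ODIRA_A lay between, and those of ComQuad and ODIRA_B overlapped. These are the values that led to the choice of the gene, and they are given without a test.

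The strain means of IMD2 were 34.9 ± 0.983, 103 ± 11.0, 236 ± 30.6 and 242 ± 11.2 CPM in Trans, ODIRA_A, ComQuad and ODIRA_B (SD, n = 2 each). In log2 CPM, Trans minus ODIRA_A was -1.55, Trans minus ComQuad was -2.75 and Trans minus ODIRA_B was -2.79. ODIRA_A minus ComQuad was -1.20, ODIRA_A minus ODIRA_B was -1.24 and ComQuad minus ODIRA_B was -0.04. The highest strain mean was 6.94 times the lowest, where the median gene tested had a ratio of 1.47 and 2.31% of genes tested had a larger ratio than IMD2.

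IMD1 and YAR075W, the pieces of the broken copy, followed an order like that of IMD2. IMD1 was at 40.3 and 21.1 CPM in Trans, 68.8 and 68.4 in ODIRA_A, 84.6 and 98.0 in ComQuad, and 124 and 115 in ODIRA_B. YAR075W was at 8.86 and 14.0 CPM in Trans, 18.9 and 14.2 in ODIRA_A, 24.7 and 31.4 in ComQuad, and 43.9 and 41.9 in ODIRA_B. For both, no 2 strains overlapped, though YAR075W in Trans replicate 2 (14.0 CPM) almost met ODIRA_A replicate 2 (14.2 CPM). The share of all genes whose strains separate in this way is not given here. In both, ODIRA_B rather than ComQuad stood highest. Over the 8 libraries, Pearson's r with IMD2 in log2 CPM was 0.94 for IMD1 and 0.91 for YAR075W, a description over libraries of genes that share reads. The ratio of IMD1 to IMD2 counts was 1.13 and 0.619 in Trans, 0.623 and 0.722 in ODIRA_A, 0.395 and 0.381 in ComQuad, and 0.497 and 0.491 in ODIRA_B, so the counts did not keep 1 proportion.

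**Figure D2:**
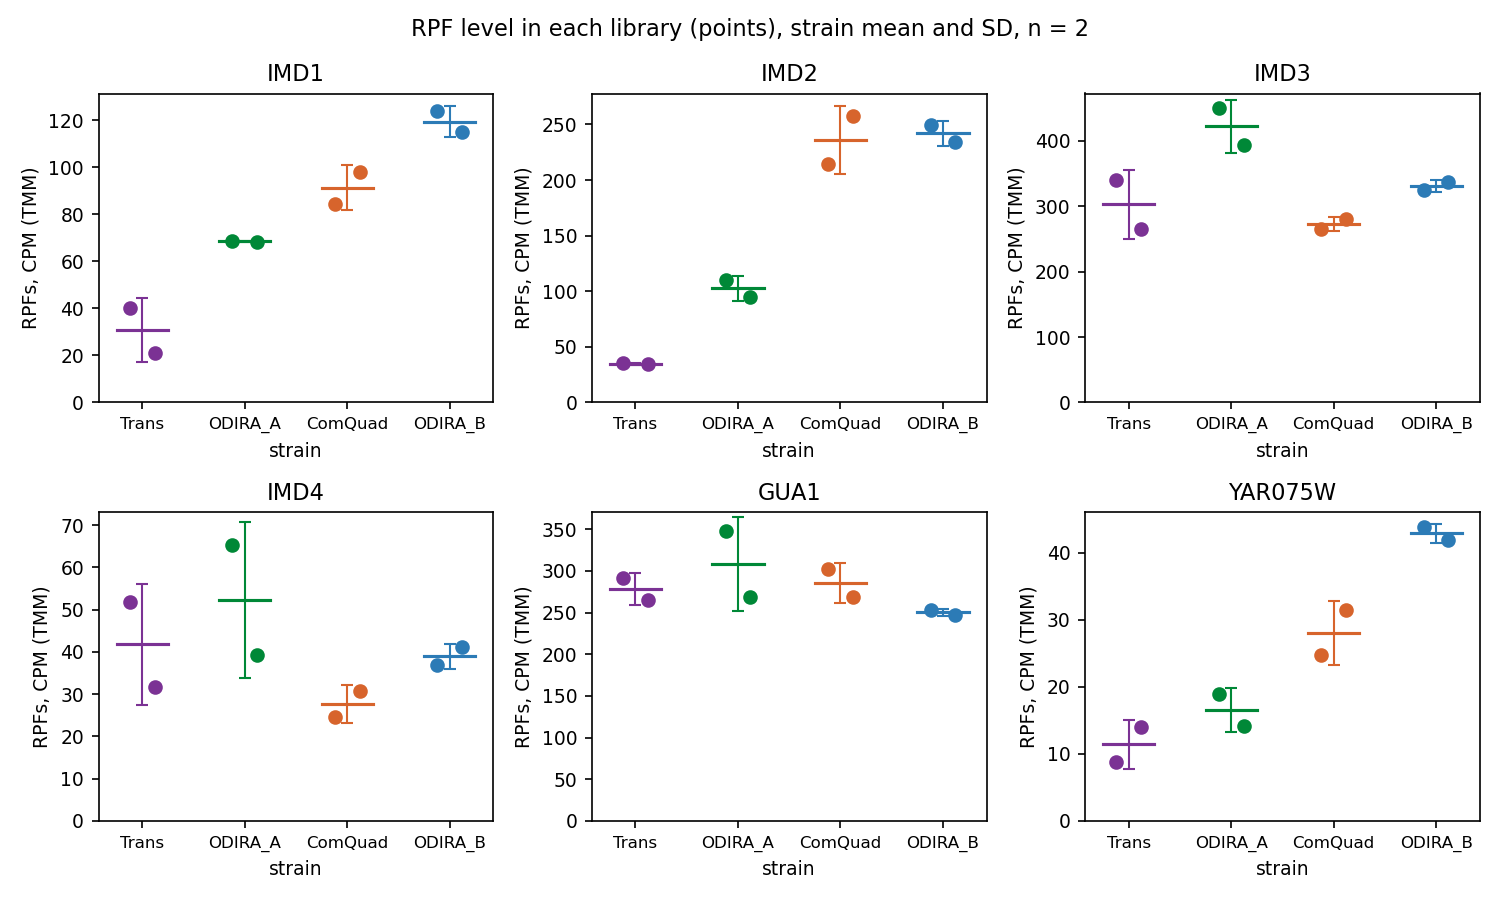
RPF level (CPM scaled by TMM, linear axis from 0) of the 5 genes and of YAR075W in each library, by strain, with the strain mean (bar) and SD (error bar, n = 2). IMD2, IMD1 and YAR075W are lowest in Trans and have their highest mean in ODIRA_B (IMD2 overlaps there with ComQuad), whereas GUA1 lies between 247 and 348 CPM in all 8 libraries.

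Beside these levels stands the count that IMD3 alone would add to IMD2 through their 208 shared windows if RPFs were spread evenly along IMD3 and each were counted on both genes. In Trans that came to 367 and 269 RPFs, against 285 and 257 counted on IMD2, so that the counted RPFs were 0.777 and 0.954 of it. In ODIRA_A the counted RPFs were 1.82 and 1.79 times the amount, in ComQuad 5.99 and 6.81 times and in ODIRA_B 5.72 and 5.15 times. Under these assumptions, the IMD2 count of Trans did not exceed what shared IMD3 windows would give, while that of every other library did. This comparison holds only as far as the assumptions do.

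IMD4 offers a check of the assumption of even spread, since its 177 windows shared with IMD3 all lie in coding exon 2 and every window of exon 1 occurs at a single place in the genome. The counted RPFs of exon 2, which include those of IMD4 itself, were 0.699 and 0.628 of the amount even IMD3 reads would add in Trans, 0.584 and 0.614 in ODIRA_A, 0.577 and 0.678 in ComQuad, and 0.844 and 0.838 in ODIRA_B. The assumption therefore overstated the shared reads of exon 2 in all 8 libraries, and the amounts for IMD2 are a guide rather than a floor.

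Solving the 4 IMD counts together for shared windows, an alternative chosen after the data were seen, left IMD2 at -13.9 and 3.14 CPM in Trans, 51.0 and 36.9 in ODIRA_A, 189 and 233 in ComQuad, and 203 and 188 in ODIRA_B. Values around 0 in Trans mean that its counts left nothing for IMD2 under this model. The model rests on the same even spread, which overstated the shared reads of IMD4 exon 2. It therefore cannot show whether Trans had RPFs of IMD2 itself. ODIRA_A stayed below ComQuad and ODIRA_B, which overlapped. For IMD1 the solution was below 0 in 4 of 8 libraries and at most 13.4 CPM with windows of 28 bases, and with windows of 32 bases it was at most 24.3 CPM (ODIRA_B replicate 1), so no level of IMD1 apart from its paralogs can be given. The log2 difference of IMD2 in ODIRA_A minus ComQuad became -2.27 and in ODIRA_A minus ODIRA_B -2.17.

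**Figure D3:**
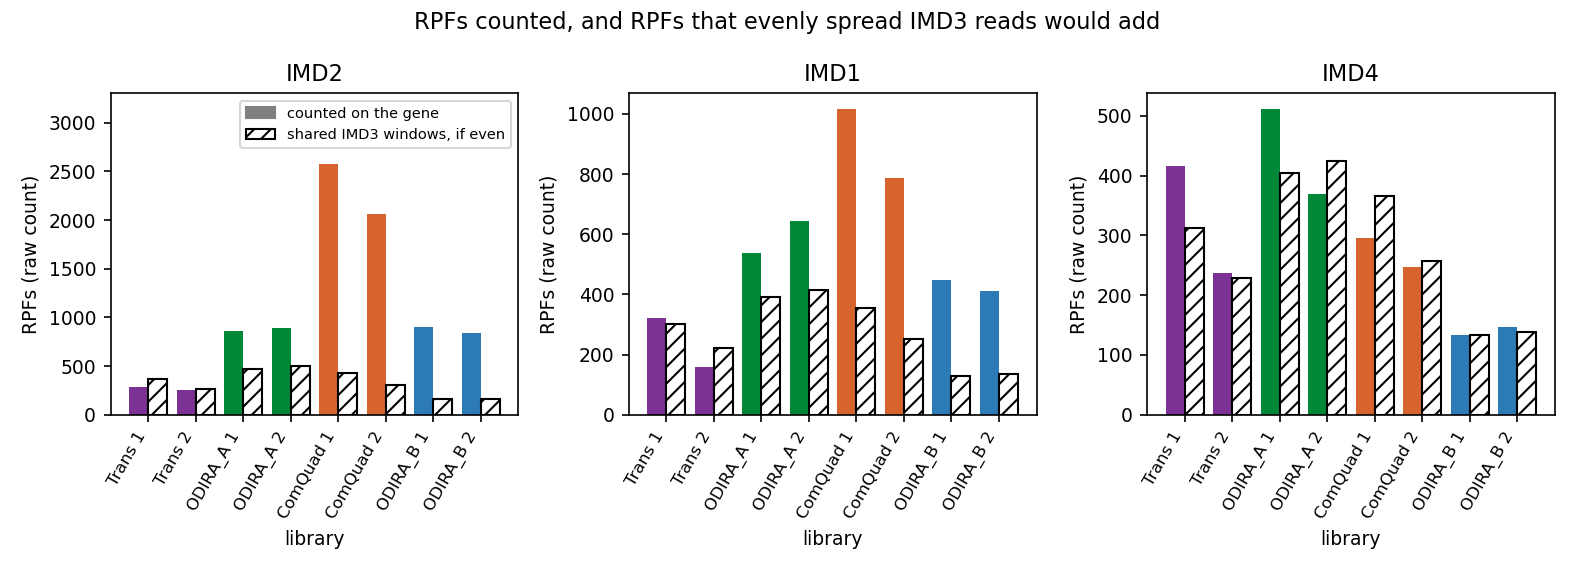
Raw RPFs counted on IMD2, IMD1 and IMD4 in each library (coloured bars) beside the RPFs that evenly spread IMD3 reads would add through shared 28-base windows (hatched bars). On IMD2 the hatched bar exceeds the counted one only in Trans (367 against 285 and 269 against 257), and in ComQuad 2574 and 2065 RPFs stand against 430.0 and 303.

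IMD2 lies near the right end of chromosome VIII, 6.68 kb from the last base of the reference. The strain description places the translocation of Trans on this arm, between FLO5 and YHR212C, and joins the chromosome there to chromosome XI. The start of IMD2 is 16.6 kb beyond the start of YHR212C, on the telomere side. The same description gives the event as a telomere replacement on chromosome VIII, which bears on whether Trans holds IMD2. The presence of the gene was not tested here, since counts of the end are mostly from repeated sequence. The study also gives a DNA copy number for each gene and strain, and lists a synonymous variant of YHR217C in Trans. Neither was analysed here.

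Of the 15 other genes from YHR212C to the telomere, 7 had more than 3 RPFs in any library and 6 were tested, with 0% to 36.3% of their windows at a single place in the genome. Both Trans libraries lay below all 6 others in 1 of these 6 (YHR214W, with 15 and 15 RPFs in Trans, 90 and 76 in ODIRA_A, 107 and 53 in ComQuad, and 27 and 38 in ODIRA_B), against 5.03% of all genes tested. The ratio of the Trans mean to the mean of the other libraries ran over the 6 genes from 0.218 to 0.969, with a median of 0.705. YHR217C, the open reading frame just beyond IMD2, had the most single-place windows of the 6, and it was at 8.86 and 22.5 CPM in Trans, 11.4 and 1.91 in ODIRA_A, 8.48 and 23.7 in ComQuad, and 25.8 and 25.7 in ODIRA_B, with replicates of 3 strains far apart. On the centromere side, the ratio for the 10 nearest genes tested ran from 0.748 (CRG1) to 1.40 (MNL1), with a median of 0.968, and Trans lay below all others in 0 of 10. Over both sides, 6 of 16 genes tested (37.5%) differed among the 4 strains by the F test, not above the 43.5% of all genes tested. On the telomere side these were YHR214W, PHO12 and YHR214W-A (edgeR F test, adjusted p = 0.0018, 0.0034 and 0.0074). On the centromere side they were SET5, BAT1 and CRG1 (edgeR F test, adjusted p = 0.0026, 0.0014 and 0.00057).

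IMD3, the paralog with the highest RPF level, differed among the strains, with ODIRA_A highest. It was at 339.7 and 266 CPM in Trans, 450.0 and 394 in ODIRA_A, 266 and 281 in ComQuad, and 324 and 338 in ODIRA_B. Both ODIRA_A libraries lay above all others, and those of Trans spanned most of the remaining range. The IMD3 count can hold IMD2 reads through their 208 shared windows. Solved for shared windows of 28 bases, it kept 99.8% and 100.3% of its value in Trans and 98.1% and 98.5% in ODIRA_A. In ComQuad it kept 91.4% and 89.8%, and in ODIRA_B 90.9% and 92.0%. The tests below use the unsolved counts. The quasi-likelihood F test of edgeR over the 4 strains gave an adjusted p of 0.021, with 43.5% of all 5725 genes tested called by the same test. Of the pairs, ODIRA_A minus ComQuad passed, at 0.63 ± 0.14 on the log2 scale (SE, edgeR adjusted p = 0.0067), and the other 5 pairs had adjusted p of 0.098 to 0.58. Trans minus ODIRA_A passed without Trans replicate 1 (log2 -0.66, edgeR adjusted p = 0.0016), and ODIRA_A minus ODIRA_B passed without Trans replicate 1 (0.019) or Trans replicate 2 (0.02). The F test call was lost without ODIRA_A replicate 1 (0.12), ComQuad replicate 1 (0.10), ComQuad replicate 2 (0.077), ODIRA_B replicate 1 (0.058) or ODIRA_B replicate 2 (0.057), all edgeR adjusted p, and that of the pair without ODIRA_A replicate 1 (0.052) or ComQuad replicate 1 (0.074).

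IMD4, the other constitutive paralog, had the lowest level of the 5 per length over all libraries. It was at 51.9 and 31.6 CPM in Trans, 65.3 and 39.3 in ODIRA_A, 24.5 and 30.8 in ComQuad, and 36.9 and 41.1 in ODIRA_B. Replicates of Trans and of ODIRA_A stood far apart, and ComQuad lay below the other 3 strains. IMD3 reads, if evenly spread, would make up 75.0% (Trans replicate 1) to 124% (ComQuad replicate 1) of the IMD4 count through shared windows. Exon 2 shows that amount to be overstated, but tests on the summed count cannot separate IMD4 reads from those of IMD3. The edgeR F test gave an adjusted p of 0.086, while ODIRA_A minus ComQuad was 0.92 ± 0.27 on the log2 scale (SE, edgeR adjusted p = 0.025). That call was lost without ODIRA_A replicate 1 (log2 0.51, adjusted p = 0.22), ComQuad replicate 1 (0.76, adjusted p = 0.18) or ComQuad replicate 2 (1.09, adjusted p = 0.058), by edgeR. The F test call was gained with DESeq2 (adjusted p = 0.026), and by edgeR without Trans replicate 1 (0.040), Trans replicate 2 (0.045) or ODIRA_A replicate 2 (0.037). Trans minus ComQuad passed without Trans replicate 2 (log2 0.92, edgeR adjusted p = 0.047).

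The exons of IMD4 did not move together. Exon 1, which shares no window with any other place, held 198 and 94 RPFs in Trans, 276 and 109 in ODIRA_A, 84 and 72 in ComQuad, and 20 and 31 in ODIRA_B. In CPM this was 24.7 and 12.5, 35.2 and 11.6, 6.98 and 8.97, and 5.55 and 8.66, in the same order of strains, so exon 1 was higher in Trans and ODIRA_A than in ComQuad and ODIRA_B, without overlap. Exon 2, in CPM, was at 27.2 and 19.1 in Trans, 30.1 and 27.7 in ODIRA_A, 17.5 and 21.8 in ComQuad, and 31.4 and 32.4 in ODIRA_B, where ODIRA_B stood highest. RPFs per base of exon 1 over exon 2 were 2.20 and 1.58 in Trans, 2.83 and 1.01 in ODIRA_A, 0.965 and 0.997 in ComQuad, and 0.429 and 0.648 in ODIRA_B. The exons were not tested, and how often other genes separate the strains in this way is not given here.

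GUA1, which acts on the product of IMP dehydrogenase, had the narrowest range. It was at 292 and 265 CPM in Trans, 348 and 268 in ODIRA_A, 303 and 268 in ComQuad, and 253 and 247 in ODIRA_B. Only ODIRA_B lay below the others, by less than the gap between the ODIRA_A replicates. The edgeR F test gave an adjusted p of 0.36, and the 6 pairs had log2 differences of -0.15 to 0.30, each with an SE of 0.15, and edgeR adjusted p of 0.17 to 0.87. Its highest strain mean was 1.23 times its lowest, and 82.4% of genes tested had a larger ratio.

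Of the 3 tested genes, IMD3 alone was called by the F test. ODIRA_A minus ComQuad called 2 of the 3, where 33.6% of all genes tested were called. These 2, IMD3 and IMD4, share reads, so their calls are not independent of each other. The other pairs called none of the 3 genes. Of all genes, Trans minus ODIRA_A called 3.65%, Trans minus ComQuad 30.7% and Trans minus ODIRA_B 18.7%. ODIRA_A minus ODIRA_B called 22.4% and ComQuad minus ODIRA_B 24.6%.

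Levels of different genes were compared per length, as TPM, RPFs per CDS base scaled to the same total in each library. Over the 8 libraries IMD3 averaged 156 TPM, GUA1 131, IMD2 72.0, IMD1 46.9 and IMD4 18.7, where the median gene tested averaged 35.0. The order changed with the strain, since in Trans the IMD2 mean was 15.9 ± 0.539 TPM, in ODIRA_A 49.5 ± 3.18, in ComQuad 116 ± 12.3 and in ODIRA_B 106 ± 0.302 (SD, n = 2 each). In Trans that was within the SD of IMD4 (19.0 ± 6.62 TPM), and in ComQuad its libraries (107 and 125 TPM) came close to those of IMD3 (133 and 136 TPM).

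As a share of the RPFs per base of all 4 paralogs, IMD2 made up 7.42% and 9.52% in Trans, 15.4% and 15.4% in ODIRA_A, 34.9% and 37.0% in ComQuad, and 32.4% and 30.7% in ODIRA_B. IMD3 made up 70.9% and 74.1% in Trans, 63.0% and 63.9% in ODIRA_A, 43.3% and 40.3% in ComQuad, and 42.0% and 44.3% in ODIRA_B. IMD3 was thus the largest part in every library, by a wide margin in Trans and a narrow one in ComQuad. IMD4 took 3.99% to 10.8% over the libraries and IMD1 7.64% to 20.9%.

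The summed level of IMD2, IMD3 and IMD4 was 173 ± 31.7 TPM in Trans, below 278 ± 21.3 for ODIRA_A, 264 ± 16.2 for ComQuad and 269 ± 13.8 for ODIRA_B (SD, n = 2 each). Trans was lowest, at 195 and 150 TPM per library against 253 to 293 in the other 6, and the other 3 strains overlapped. This sum counts shared reads more than once and contains IMD2, so it was not tested.

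**Figure D4:**
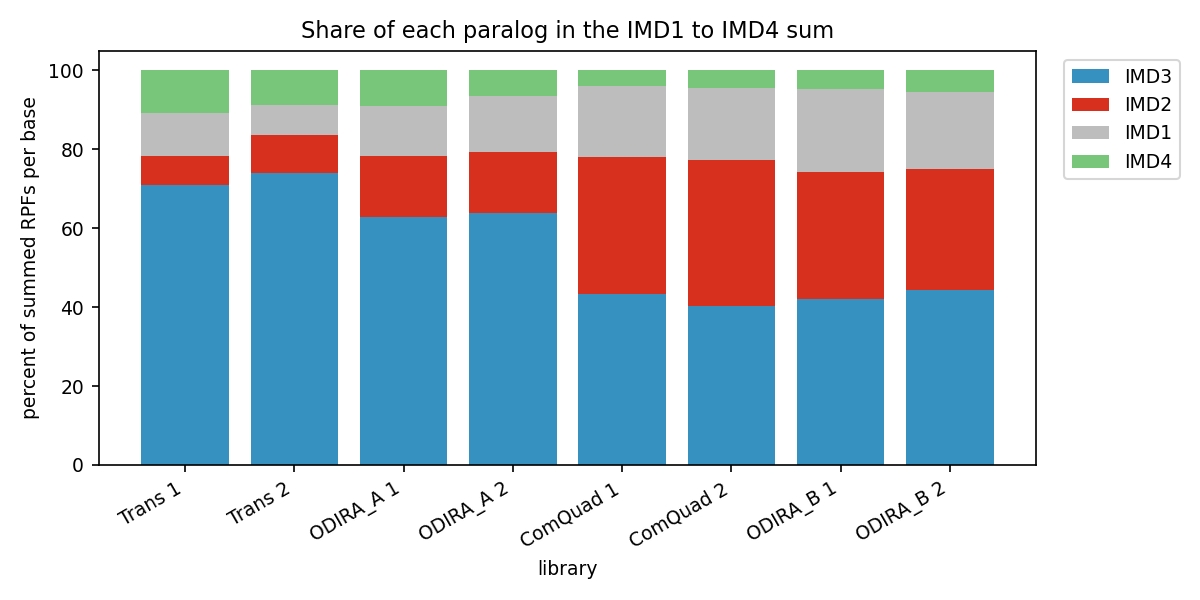
Share of each paralog (percent, stacked to the full sum) in the summed RPFs per base of IMD1 to IMD4, for each library. The IMD2 part is 7.42% to 9.52% in Trans, 15.4% in ODIRA_A and 30.7% to 37.0% in ComQuad and ODIRA_B, while the IMD3 part is 40.3% to 74.1%.

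The genes around these enzymes were taken as lists and tested in the same fit. The list called guanine branch here holds kinases, salvage enzymes and ribonucleotide reductase subunits, and is not confined to enzymes of guanine nucleotides alone. It was chosen with earlier results of these data known. All 9 genes differed among the 4 strains by the edgeR F test, against 43.5% of all genes tested, but not in 1 direction. For ODIRA_A minus ComQuad, 3 were called higher and 4 lower, where 17.2% of all genes tested were called higher and 16.4% lower, and the median log2 difference was -0.25, against 0.0037 over all genes tested. The count of 9 fell to 4 without ComQuad replicate 1, ComQuad replicate 2 or ODIRA_B replicate 1 and to 5 without ODIRA_B replicate 2, where the share of all genes called also fell, to 24.9%, 25.9%, 29.2% and 29.4% in that order.

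RNR3 and RNR1, alternative large subunits of ribonucleotide reductase, were opposed. RNR3 was at 44.7 and 51.7 CPM in Trans, 64.2 and 72.8 in ODIRA_A, 23.9 and 24.5 in ComQuad, and 41.9 and 36.6 in ODIRA_B (edgeR F test, adjusted p = 1e-04). RNR1 was at 308 and 357 CPM in Trans, 313 and 253 in ODIRA_A, 759 and 671 in ComQuad, and 343 and 378 in ODIRA_B (edgeR F test, adjusted p = 0.00013). ComQuad stood apart in both, lowest in RNR3 and highest in RNR1. GUD1, guanine deaminase, which removes guanine, had an order like that of IMD2, with means of 50.4, 57.4, 75.7 and 83.4 CPM in Trans, ODIRA_A, ComQuad and ODIRA_B (edgeR F test, adjusted p = 0.0054), and Trans minus ODIRA_B was -0.73 ± 0.14 (log2, SE).

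The list called adenine branch here also holds genes of purine interconversion. Of its 10 genes, 4 differed (PNP1, AMD1, ADE12 and ADO1), a share near the 43.5% of all genes tested. AMD1, AMP deaminase, which returns AMP to IMP, was at 249.9 and 274 CPM in Trans, 249.6 and 279.7 in ODIRA_A, 151 and 155 in ComQuad, and 179 and 205 in ODIRA_B, so that the strains isolated earlier lay above those isolated later. PNP1, purine nucleoside phosphorylase, ran the other way, at 55.1 and 53.3 CPM in Trans, 54.2 and 44.0 in ODIRA_A, 93.2 and 83.3 in ComQuad, and 83.3 and 81.9 in ODIRA_B. ODIRA_A minus ComQuad was 0.79 ± 0.12 for AMD1 and -0.85 ± 0.14 for PNP1 (log2, SE, edgeR adjusted p = 0.00066 and 0.00082). ADE12, adenylosuccinate synthase, which takes IMP into the adenine branch, was lower in ComQuad than in ODIRA_B by edgeR (log2 -0.60 ± 0.13, SE, adjusted p = 0.008). Without either replicate of ODIRA_A, of ComQuad or of ODIRA_B, fewer genes of the list were called, and fewer of all genes tested as well.

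Of the 15 genes that make IMP, 7 differed (MTD1, ADE8, ADE17, ADE5,7, ADE3, ADE2 and ADE1), again a share near the 43.5% of all genes tested. For ComQuad minus ODIRA_B, 6 were lower and 0 higher, where 14.7% of all genes tested were called lower and 9.9% higher. The median log2 difference was -0.30, against 0.014 over all genes tested. For ODIRA_A minus ComQuad, 6 were higher and 1 lower, where 17.2% of all genes tested were called higher and 16.4% lower. The median there was 0.30, against 0.0037 over all genes tested. ADE17, which makes IMP in the final steps, was at 499.5 and 503 CPM in Trans, 503 and 433 in ODIRA_A, 217 and 261 in ComQuad, and 511 and 516 in ODIRA_B. ComQuad alone was low in ADE17, while its IMD2 level overlapped that of ODIRA_B. ADE8, a transformylase of the pathway, and MTD1, a dehydrogenase of folate units, were also lowest in ComQuad (28.2 and 60.6 CPM) and highest in ODIRA_B (75.0 and 275 CPM). MTD1 lies on chromosome XI, within the bounds given for the amplified segments of ODIRA_A and ODIRA_B. It is beyond the tandem duplication of Trans, but that duplication is nested within a translocation. The copy number of MTD1, also in Trans, was not analysed here. The count of 7 fell without either replicate of ComQuad or of ODIRA_B, where fewer of all genes tested were called as well.

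Among 10 regulators, namely Bas1 and Pho2, activators of purine genes, and factors of transcription initiation, elongation and termination, BAS1 alone was called, 1 of 10 against 43.5% of all genes tested. It was at 115 and 126 CPM in Trans, 177 and 177 in ODIRA_A, 65.8 and 74.4 in ComQuad, and 54.7 and 64.3 in ODIRA_B (edgeR F test, adjusted p = 1.5e-05). ODIRA_A minus ODIRA_B was 1.57 ± 0.13 (log2, SE). The gene lies on chromosome XI within the segment amplified in ODIRA_A (ALY1 to SIR1) and beyond that of ODIRA_B (VPS1 to ESL2). It is also beyond the tandem duplication of Trans (TOF2 to GAP1). That duplication is nested within a translocation, and whether Trans holds further copies of BAS1 was not analysed here. The highest level of BAS1 stood in a strain whose amplification includes it, and the part of copy number was not tested. NRD1, NAB3 and SEN1, the termination factors, had edgeR F test adjusted p of 0.13, 0.52 and 0.53, and SSU72 and PCF11 of 0.085 and 0.086. Without Trans replicate 1 the list had 5 calls and without Trans replicate 2 it had 4, where 68% and 55% of all genes tested were called, and without ODIRA_A replicate 1 it had 2, where 37.8% were.

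**Figure D5:**
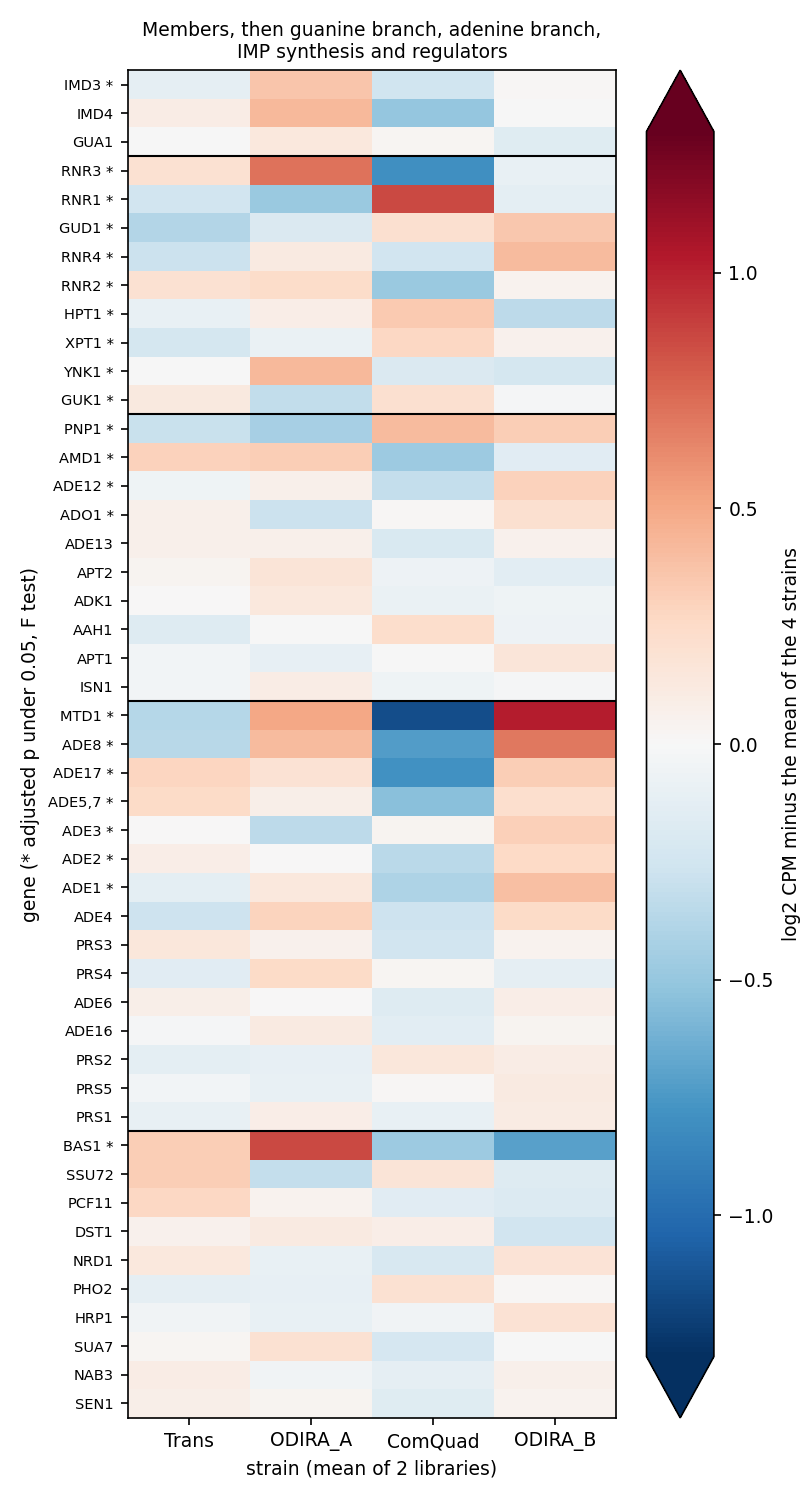
Strain means (n = 2 libraries) of IMD3, IMD4, GUA1 and the listed purine genes as log2 CPM minus the mean of the 4 strains, in blocks from top to bottom for the members, guanine branch, adenine branch, IMP synthesis and regulators. Stars mark an edgeR F test adjusted p under 0.05. All 9 guanine branch genes and 1 of 10 regulators carry a star, and ComQuad is lowest in MTD1, ADE8 and ADE17.

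The genes whose levels ran most like IMD2 over the 8 libraries, by Pearson's r in log2 CPM, were PFS2 (0.97), SHB17 (0.97), ODC1 (0.96), SPP382 (0.96) and MIH1 (0.96). Their range was narrower than that of IMD2: ODC1, a mitochondrial carrier, had means of 47.0, 74.2, 99.7 and 109 CPM over Trans, ODIRA_A, ComQuad and ODIRA_B, and PFS2 had 54.9, 61.0, 66.4 and 67.5 in the same order. They were picked as the highest of all genes tested over 8 libraries that fall into 4 strains, so the likeness is a description. SHB17 lies on chromosome XI and was reported as amplified, and its copy number was not analysed here. IMD3 (r = -0.07), IMD4 (r = -0.32) and GUA1 (r = -0.20) did not follow IMD2.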

How the data were processed

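The authors deposited, for each of 8 RPF libraries, raw read counts per annotated feature on the R64 genome; the submitters' processing notes name cutadapt, STAR and bedtools, and the counting was by strand. How reads that map to several places were placed is not given in the sources used here. Here, counts of CDS features were summed per gene, and genes with at least 10 RPFs in 2 libraries (5725 of 6600) were fitted with edgeR 4.0.16 in R 4.3.3 (TMM, quasi-likelihood, all 4 strains in 1 fit without a block), with an F test over the strains, 6 pairwise contrasts and Benjamini-Hochberg adjustment over all genes tested (threshold 0.05). The fit was tested on simulated counts. DESeq2 1.42.0 was an alternative. Sequence was read from the RefSeq R64 genome, whose 17 chromosome lengths equal those in the tables, and aligned with Biopython 1.88. The members and lists were chosen with earlier results of these data known. Named are the 5 members in every library, YAR075W, the 3 genes of smallest adjusted p in each list, chromosome VIII end genes and the 5 genes most like IMD2. ADO1, ADE5,7, ADE3, ADE2, ADE1, NRD1, NAB3 and SEN1 were named in addition, after their values were seen.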

Additional observations from a re-analysis of the deposited data

How the results depend on the processing

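The 2 libraries per strain limit what follows. DESeq2, RLE scaling, TMM from genes outside the amplified regions and the chromosome VIII end, no filter, 10 RPFs in every library and whole gene features kept the direction of the IMD3, IMD4 and GUA1 differences, with 2484 to 2540 genes called among the 4 strains against 2491, except 2408 with the stricter filter. With DESeq2 the likelihood ratio test over the 4 strains passed for IMD4 (adjusted p = 0.026). Its pairwise test of IMD3 in Trans minus ODIRA_A passed too (adjusted p = 0.044). Fitted on only the 4 libraries of a pair, edgeR also called IMD3 in ODIRA_A minus ODIRA_B (adjusted p = 0.041) and ComQuad minus ODIRA_B (0.012) and IMD4 in ComQuad minus ODIRA_B (0.0061), with the direction kept. The cause of these changes was not tested. The replicate numbers did not pair the samples (correlations of deviations from -0.13 to 0.17), and with the replicate block 2535 genes were called and no call of IMD3, IMD4 or GUA1 changed.

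Leaving out each library in turn, the count over all genes ran from 1419 (without ComQuad replicate 1) to 3881 (without Trans replicate 1), and was 1481 without ComQuad replicate 2. It ran from 4 to 9 for the guanine branch, 2 to 4 for the adenine branch, 4 to 9 for IMP synthesis, 1 to 5 for regulators and 5 to 9 for the chromosome VIII end. By edgeR, the F test adjusted p ran from 0.000291 to 0.122 for IMD3, 0.0374 to 0.335 for IMD4 and 0.126 to 0.617 for GUA1. ODIRA_A minus ComQuad ran from 0.53 to 0.72 (log2) for IMD3 and 0.51 to 1.25 for IMD4. Differences that passed no test changed sign: for IMD3, Trans minus ComQuad (-0.037 to 0.32) and Trans minus ODIRA_B (-0.31 to 0.038), for IMD4, Trans minus ODIRA_A (-0.72 to 0.092) and Trans minus ODIRA_B (-0.30 to 0.41), and for GUA1, Trans minus ODIRA_A (-0.32 to 0.054), Trans minus ComQuad (-0.12 to 0.052) and ODIRA_A minus ComQuad (-0.092 to 0.29).

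Leaving IMD1 out of the sum, IMD2 made up 9.31%, 17.8%, 43.9% and 39.5% and IMD3 79.9%, 73.3%, 51.0% and 54.1% in Trans, ODIRA_A, ComQuad and ODIRA_B. Solved for shared windows, chosen after seeing the data, IMD2 made up 0.578%, 9.23%, 45.8% and 38.0% and IMD3 96.0%, 87.7%, 54.0% and 58.7%, with values below 0 set to 0. The IMD2 log2 difference was then -2.27 for ODIRA_A minus ComQuad and -2.17 for ODIRA_A minus ODIRA_B, while that of IMD3 in ODIRA_A minus ComQuad was 0.74. No such value can be given for IMD2 in Trans, for IMD1 or for most pairs of IMD4, where solved counts fell below 0.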
